A study of Homo sapiens with 6 samples.

Results

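Homologous recombination and Fanconi anaemia genes were examined in the human colorectal carcinoma line HCT116, with or without BRCA2. The set was a list of 34 genes of the pathway in which BRCA2 acts. A gene counted as measured where a probe set carried its symbol and no other, and where several did, the 1 with the highest mean stood for it. Of the 34 genes, 27 were measured, among 13139 measured genes in all. The 7 genes not matched were BRCA2 itself, ATM, RAD50, RBBP8, FANCA, FANCL and FANCD2. For ATM, RAD50 and FANCL the probe sets carried the symbol of another gene too, and their values were not used. The genotype labels were therefore not checked against the targeted gene here.

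The wild-type group was the parental HCT116 line and the knockout group was a derived line labelled BRCA2 knockout, in which gene targeting had removed first 1 and then the other BRCA2 allele. Cells of both lines grew in McCoy's 5A medium containing serum and received no treatment, and the labels do not say how many knockout clones gave the RNA. Each genotype had 3 whole-transcript arrays, which the labels call technical replicates, although their extraction protocol speaks of 3 frozen samples per genotype. Whether these were separate cultures is not said, so each p-value given here reflects only how far these arrays vary, which may be technical. Values are log2 probe set values as deposited, and a difference is knockout minus wild type from limma with the standard error (SE) of that fit. The missing BRCA2 and whatever else separates these lines cannot be told apart, and neither can fewer cells in a cell cycle phase from less RNA per cell.

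As background, homologous recombination repairs a double-strand break by copying the sister chromatid. The MRE11-RAD50-NBN complex binds the ends, nucleases resect them, and BRCA1, PALB2 and BRCA2 act on the exposed strand before it invades the sister. The Fanconi anaemia pathway unhooks crosslinks between the strands of DNA. Its core complex is a ubiquitin ligase that modifies FANCD2 and FANCI, after which scaffolds, nucleases and helicases act on the lesion and recombination completes the repair. Many of these genes are transcribed mainly in S and G2 phase.

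No measured member passed an adjusted p of 0.05. Values did not overlap between genotypes for 4 members (14.8%, against 19.7% of all probe sets). These were RAD52, RAD51AP1 and FANCF, which had higher values in the knockout, and FANCG, which had lower ones. On knockout arrays 1 and 3, 7 of the 27 members lay below every wild-type array, as did 21.5% of all probe sets. They were the Fanconi anaemia core complex genes FANCB, FANCC, FANCG and FANCM, and RAD54L, RAD54B and SLX4. The BRCA1 complex genes lay close to the wild type. For most members (81.5%) the range of the wild-type arrays was wider than the difference between genotypes, as it was for 74.3% of all probe sets. The promoters of the 4 members whose arrays did not overlap are printed here as a description. Those of FANCC and FANCM are added, core complex genes that were lower in each of the array comparisons given below. FANCB was lower in each of them too, but its promoter is not printed.

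The sequences are the 250 bases before the annotated gene start in RefSeq (build GRCh38.p14), 5′ to 3′ on the strand of the gene, for FANCG (chr9:35079943-35080192, minus strand), FANCC (chr9:95317710-95317959, minus strand), FANCM (chr14:45135680-45135929, plus strand), FANCF (chr11:22625824-22626073, minus strand), RAD52 (chr12:949695-949944, minus strand) and RAD51AP1 (chr12:4538640-4538889, plus strand). Capitals mark matches, on either strand, to an E2F-type site (TTTNNCGC), the cell cycle homology region (CHR, TTTGAA), the CCAAT box (CCAAT) and the GC box (GGGCGG), and where matches overlap they run together.
FANCG: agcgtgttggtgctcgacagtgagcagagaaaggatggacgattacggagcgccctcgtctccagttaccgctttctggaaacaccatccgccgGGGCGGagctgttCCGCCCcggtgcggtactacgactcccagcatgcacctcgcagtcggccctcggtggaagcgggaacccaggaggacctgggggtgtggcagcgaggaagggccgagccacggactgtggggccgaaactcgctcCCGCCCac
FANCC: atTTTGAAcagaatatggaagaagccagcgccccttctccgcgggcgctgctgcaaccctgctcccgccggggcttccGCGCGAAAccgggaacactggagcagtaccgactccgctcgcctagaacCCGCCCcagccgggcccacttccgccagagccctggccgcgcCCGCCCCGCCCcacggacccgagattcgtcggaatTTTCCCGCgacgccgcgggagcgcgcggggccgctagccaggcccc
FANCM: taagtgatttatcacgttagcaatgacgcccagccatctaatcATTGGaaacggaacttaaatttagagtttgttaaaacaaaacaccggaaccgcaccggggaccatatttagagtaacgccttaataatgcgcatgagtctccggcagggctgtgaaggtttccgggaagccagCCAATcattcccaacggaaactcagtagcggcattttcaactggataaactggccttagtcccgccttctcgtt
FANCF: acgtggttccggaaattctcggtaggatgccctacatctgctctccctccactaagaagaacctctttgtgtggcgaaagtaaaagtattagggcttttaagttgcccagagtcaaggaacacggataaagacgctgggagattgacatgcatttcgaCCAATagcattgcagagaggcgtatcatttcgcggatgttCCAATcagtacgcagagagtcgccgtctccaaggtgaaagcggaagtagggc
RAD52: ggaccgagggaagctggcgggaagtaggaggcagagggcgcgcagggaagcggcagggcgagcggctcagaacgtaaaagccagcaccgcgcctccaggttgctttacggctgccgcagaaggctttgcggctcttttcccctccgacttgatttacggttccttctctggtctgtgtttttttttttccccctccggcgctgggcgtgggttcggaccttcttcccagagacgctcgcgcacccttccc
RAD51AP1: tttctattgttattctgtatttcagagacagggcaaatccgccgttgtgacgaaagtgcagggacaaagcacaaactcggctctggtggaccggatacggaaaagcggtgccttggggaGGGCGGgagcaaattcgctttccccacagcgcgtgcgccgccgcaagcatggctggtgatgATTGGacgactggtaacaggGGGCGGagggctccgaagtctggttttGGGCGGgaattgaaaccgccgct

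A promoter window was found for 24 of the 27 measured members, and not for NBN, RAD54B and FANCI. The E2F-type letters occurred in 1 of the 24 windows (4.17%), that of FANCC, at 172 and 46 bases before the start, and in 5.93% of 27305 promoter windows of the same length. The CHR letters occurred in 3 windows (12.5%, against 13.6% of all), those of FANCC, BRIP1 and HELQ. CCAAT occurred in 9 windows (37.5%, against 33.0%), among them FANCF and FANCM with 2 matches each and RAD51AP1 with 1. The GC box occurred in 16 windows (66.7%, against 42.3%), among them FANCG, FANCC and RAD51AP1 with 3 matches each. The FANCB window, not printed, also held 3 GC box matches and none of the other motifs. The RAD52 window held none of the 4 motifs, and where a gene had several windows, as RAD52 and FANCC did, the first listed was used. Such a match describes the letters of the window and nothing more.

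Across the 27 members, 17 had a negative and 10 a positive difference, with a median of -0.21, against a median of 0.02 over all 19458 probe sets. That is 63.0% of the members lower, where 48.7% of all probe sets were lower. No member was called in limma at a Benjamini-Hochberg adjusted p under 0.05, a threshold that 0.57% of all probe sets passed, and the smallest adjusted p of a member was 0.240, that of RAD52. At an unadjusted p under 0.05 there was 1 member, RAD52, or 3.70% of them, against 12.2% of all probe sets. Values of wild type and knockout had no overlap in 4 members, or 14.8%, against 19.7% of all probe sets. Of these, 3 were higher (12% of all probe sets) and FANCG was lower (7.7%). By these counts the members did not stand out from the array as a whole. An exact permutation test of any single member cannot give a two-sided p below 0.1 with 3 against 3 arrays.

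The arrays of a genotype were far from alike for these genes. Wild-type array 1 was the highest wild-type array for 25 of the 27 members and knockout array 2 the highest knockout array for 25. Both held for 23 members, or 85.2%, against 39.1% of all probe sets. In the lists given below, both held for 65.1% of other pathway genes, 62.5% of S phase genes and 76.5% of G2 and mitosis genes. Wild-type array 1 and knockout array 2 were also the 2 arrays of highest overall median (7.71 and 7.80, against 7.36 to 7.48 on the other 4). Wild-type array 1 exceeded the mean of wild-type arrays 2 and 3 by a median of 0.80 over the members and 0.20 over all probe sets, and knockout array 2 exceeded the mean of the other knockout arrays by 0.90 and 0.28. Across the 27 members the shifts on these arrays had a Pearson correlation of 0.65, against 0.83 across the other pathway genes and 0.49 across all probe sets. These are given as a description because genes on shared arrays are not independent. The cause of the shift was not tested. For 22 members (81.5%, against 74.3% of all probe sets) the genotype difference was smaller than the range of the 3 wild-type arrays.

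**Figure D1:**
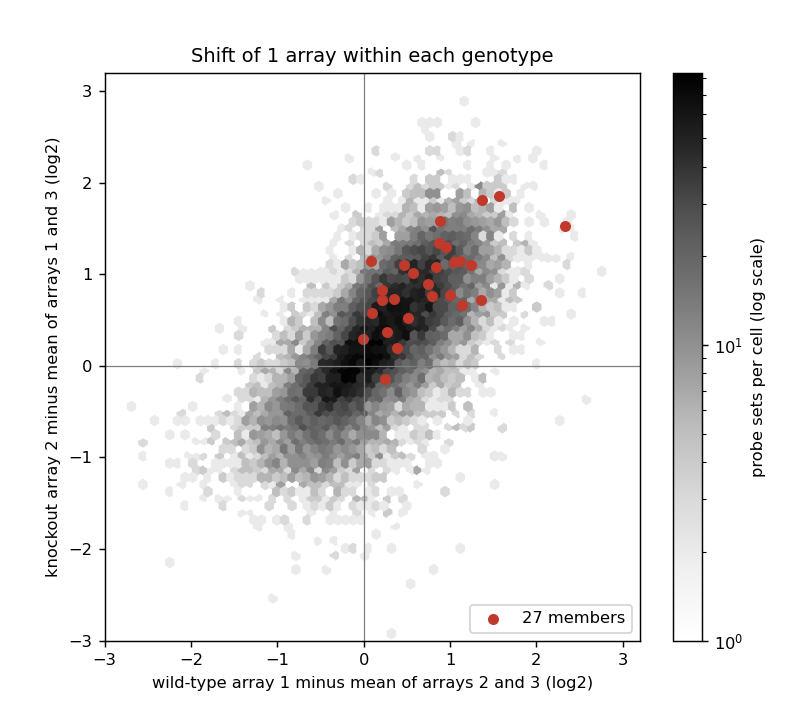
Each axis gives, in log2 units, how far 1 array lies from the mean of the other arrays of its genotype, with wild-type array 1 on the horizontal and knockout array 2 on the vertical axis. Grey cells count probe sets within the plotted range on a log scale and red points are the 27 members, which lie almost all to the upper right of the origin, with medians of 0.80 and 0.90 against 0.20 and 0.28 for all probe sets.

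Because of that shift, the difference of each member is drawn both with all 6 arrays and without knockout array 2. In the text both are given for part of the genes, and for some members also a comparison of like with like. That comparison set knockout array 2 against wild-type array 1, and knockout arrays 1 and 3 against wild-type arrays 2 and 3. It was chosen with the values known. A fit with the class of array median as a block keeps the differences of all 6 arrays and changes only their errors.

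**Figure D2:**
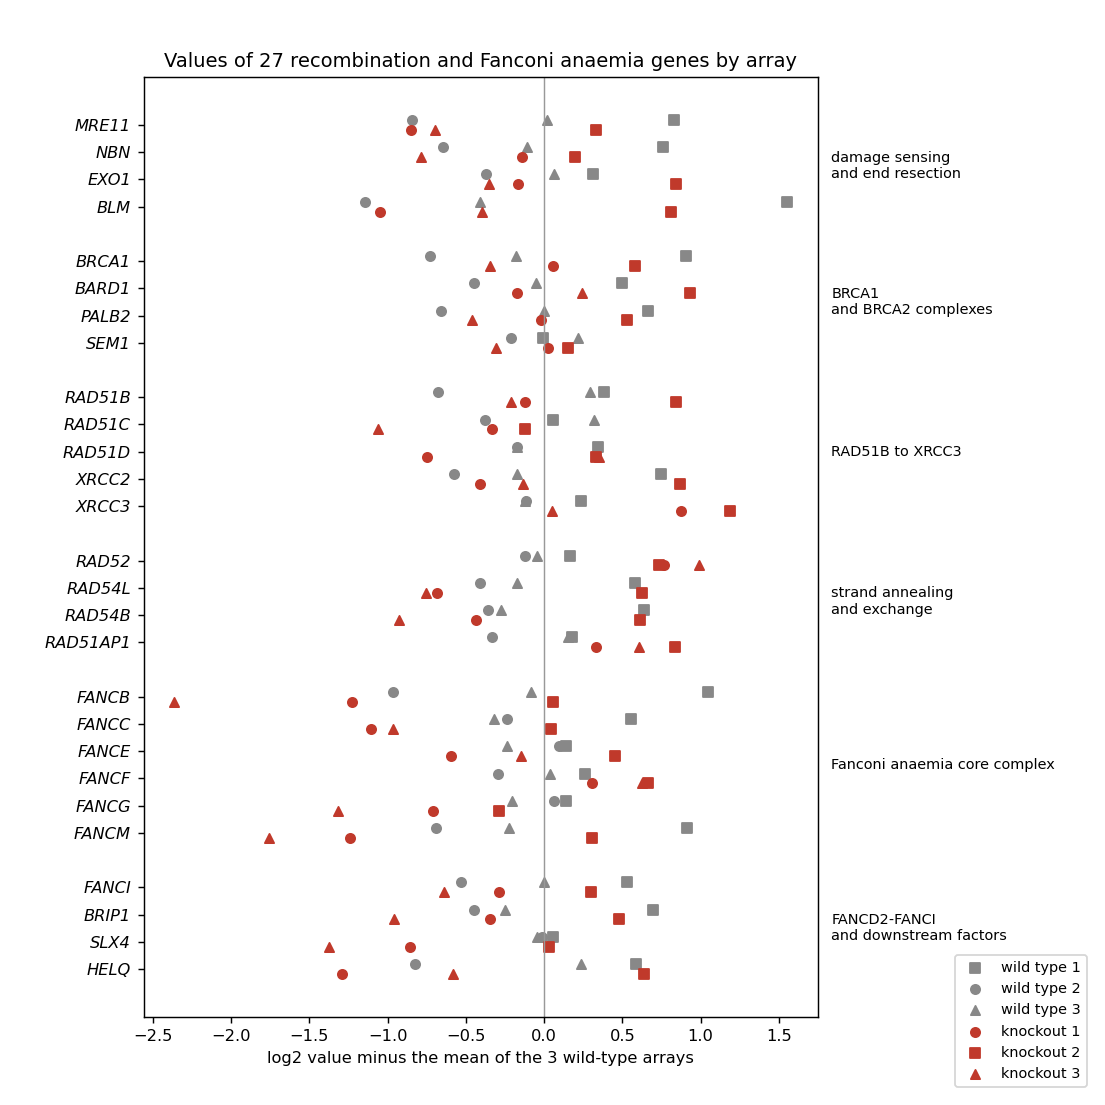
Values of the 27 measured members on the 6 arrays, as log2 value minus the mean of the 3 wild-type arrays of that gene, with wild-type arrays in grey and knockout arrays in red, grouped by step. Wild-type array 1 and knockout array 2, drawn as squares, lie to the right for 25 members each within their genotype. RAD52, RAD51AP1, FANCF and FANCG are the members whose grey and red points do not overlap.

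Genes for damage sensing and end resection had differences smaller than the range of their wild-type arrays, with SEs from 0.39 to 0.76. Of 4 measured genes, 3 had a negative difference, with a median of -0.23. MRE11, the nuclease of the end-binding complex, was at 8.58, 6.91 and 7.77 in wild type (arrays 1, 2 and 3, in that order throughout) and at 6.90, 8.08 and 7.06 in knockout, and its genotypes overlapped. Its difference was -0.40 ± 0.51 (adjusted p = 0.787), and -0.77 ± 0.51 without knockout array 2 (adjusted p = 0.449). BLM, the helicase mutated in Bloom syndrome, ranged most within the wild type, from 4.63 to 7.32, and its difference of -0.21 ± 0.76 was a small part of that range. NBN, the nibrin subunit of the end-binding complex, was at -0.24 ± 0.44. EXO1, an exonuclease of long-range resection, had a difference of 0.11 ± 0.39 that turned to -0.26 ± 0.32 without knockout array 2. Without that array all 4 genes were lower, with a median of -0.59, and none passed an unadjusted p of 0.05.

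The BRCA1 and BRCA2 complex genes were the closest to the wild type. BRCA1, which with BARD1 forms a ubiquitin ligase that directs breaks to recombination, was at 8.70, 7.06 and 7.61 in wild type and 7.85, 8.37 and 7.45 in knockout. The knockout values lay inside the wild-type range, and the difference was 0.10 ± 0.47 (adjusted p = 0.949). PALB2, which links BRCA1 to BRCA2, was at 9.49, 8.16 and 8.82 in wild type and 8.80, 9.35 and 8.36 in knockout, also inside the wild-type range (0.02 ± 0.43). SEM1, a small acidic protein that binds BRCA2, had the narrowest spread of the 4 genes, 9.21 to 9.64 in wild type and 9.12 to 9.58 in knockout, with a difference of -0.04 ± 0.27. BARD1 was at 0.34 ± 0.39. Without knockout array 2 the median of the 4 went from 0.06 to -0.14, with BRCA1 at -0.14 ± 0.51 and PALB2 at -0.24 ± 0.45. A p that misses the threshold does not show equal expression: the SE of these 4 differences ran from 0.27 to 0.47 on the log2 scale.

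RAD51B, RAD51C, RAD51D, XRCC2 and XRCC3, which form a pair of complexes that assist strand invasion, had differences of either sign. RAD51C, a subunit of both complexes, was at 8.44, 8.0 and 8.70 in wild type and 8.05, 8.26 and 7.31 in knockout, a difference of -0.51 ± 0.35 (adjusted p = 0.602) and of -0.70 ± 0.37 without knockout array 2. XRCC3, the partner of RAD51C in the smaller complex, was at 6.72, 6.37 and 6.37 in wild type and 7.36, 7.67 and 6.54 in knockout, a difference of 0.70 ± 0.35 (adjusted p = 0.487). Only knockout array 3 overlapped the wild type, and without knockout array 2 the difference was 0.46 ± 0.35. RAD51B (0.17 ± 0.43), RAD51D (-0.02 ± 0.38) and XRCC2 (0.11 ± 0.47), the other subunits of the larger complex, lay near 0, and without knockout array 2 RAD51B and XRCC2 had a difference below 0 (-0.17 and -0.27). Of these 5 genes, 2 were lower with all arrays and 4 without knockout array 2.

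Among the strand annealing and exchange genes RAD52, RAD54L, RAD54B and RAD51AP1, RAD52 had the best separated values of all members. RAD52, which anneals single strands, was at 9.0, 8.72 and 8.80 in wild type and 9.61, 9.57 and 9.83 in knockout, so that every knockout array was above every wild-type array. The difference was 0.83 ± 0.24 (1.78-fold, unadjusted p = 0.0111, adjusted p = 0.240 in limma), and it was 0.88 ± 0.28 without knockout array 2 (adjusted p = 0.239). It was 0.57 between knockout array 2 and wild-type array 1, and 0.96 between the other arrays. RAD51AP1, which stimulates strand invasion, was at 8.55, 8.05 and 8.53 in wild type and 8.71, 9.21 and 8.98 in knockout, again without overlap. Its difference was 0.59 ± 0.28 (adjusted p = 0.460), and 0.66 and 0.56 in the paired and the other arrays. RAD54L and RAD54B, motor proteins that remodel the joint, had their highest values on wild-type array 1 and knockout array 2. RAD54L was at 7.79, 6.80 and 7.04 in wild type and 6.53, 7.84 and 6.45 in knockout, a difference of -0.27 ± 0.46 that became -0.72 ± 0.38 without knockout array 2. RAD54B went from -0.25 ± 0.48 to -0.68 ± 0.41, and for both genes knockout array 2 differed from wild-type array 1 by only 0.05 and -0.02.

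The Fanconi anaemia core complex had the lowest median of the 6 steps, -0.72 over its 6 measured genes, 5 of them lower. This median depends on which genes were put in the step. FAAP100, FAAP20 and FAAP24 were counted among other Fanconi anaemia factors, at 0.47 ± 0.27, 0.44 ± 0.34 and -0.03 ± 0.34. FANCG, a core subunit that binds FANCA, was at 8.74, 8.66 and 8.39 in wild type and 7.89, 8.31 and 7.28 in knockout. All knockout arrays were below all wild-type arrays, and the difference was -0.77 ± 0.33 (adjusted p = 0.414, unadjusted p = 0.0511). FANCB, an X-linked subunit of the catalytic module, was at 7.97, 5.96 and 6.84 in wild type and 5.69, 6.98 and 4.56 in knockout. Knockout array 2 was above wild-type arrays 2 and 3, and the difference of -1.18 ± 0.72 (adjusted p = 0.558) was the largest of any member. FANCM, a DNA translocase that anchors the complex at stalled forks, was at 7.26, 5.65 and 6.12 in wild type and 5.11, 6.65 and 4.59 in knockout (-0.89 ± 0.63, adjusted p = 0.611). FANCC, a subunit that binds FANCE, was at 8.44, 7.65 and 7.56 in wild type and 6.78, 7.93 and 6.92 in knockout (-0.67 ± 0.41, adjusted p = 0.558). For FANCM and FANCC, as for FANCB, only knockout array 2 reached into the wild-type range.

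Without knockout array 2 the differences of these 4 core genes were -1.79 ± 0.65 for FANCB, -1.50 ± 0.52 for FANCM, -1.04 ± 0.36 for FANCC and -1.01 ± 0.32 for FANCG, with adjusted p between 0.238 and 0.274. Their unadjusted p, between 0.0184 and 0.0308, was under 0.05 for each. Their values were lower in both like-with-like comparisons. Knockout array 2 against wild-type array 1 gave -0.99, -0.60, -0.51 and -0.43 for FANCB, FANCM, FANCC and FANCG, and the other arrays gave -1.27, -1.04, -0.76 and -0.94. With the array median class as a block the SE fell to 0.39, 0.26, 0.19 and 0.26, and the adjusted p to 0.182, 0.148, 0.143 and 0.188, still above the threshold. FANCF, an adaptor of the same complex, had a difference of opposite sign. It was at 8.79, 8.24 and 8.57 in wild type and 8.84, 9.20 and 9.16 in knockout, without overlap, a difference of 0.53 ± 0.27 (adjusted p = 0.496). FANCE, which links the core complex to FANCD2, was at -0.10 ± 0.33, and at 0.31 and -0.30 in the paired and the other arrays.

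Of the factors that act after the core complex, all 4 measured genes had a negative difference, with a median of -0.34. SLX4, a scaffold for structure-specific nucleases, had almost the same value on the wild-type arrays (6.81, 6.74 and 6.71) but not on the knockout arrays (5.89, 6.78 and 5.37). Its difference was -0.73 ± 0.38 (adjusted p = 0.503) and -1.12 ± 0.30 without knockout array 2, which had the smallest adjusted p of any member there (0.199, unadjusted 0.00859). Knockout array 2 stood at the wild-type level, only -0.03 from wild-type array 1. HELQ, a helicase of crosslink repair, was at 7.65, 6.24 and 7.30 in wild type and 5.78, 7.71 and 6.48 in knockout (-0.41 ± 0.58, and -0.94 ± 0.49 without knockout array 2). FANCI, the partner of FANCD2, was at -0.21 ± 0.38, and BRIP1, a helicase that binds BRCA1, at -0.27 ± 0.47. Their differences without knockout array 2 were -0.46 and -0.65.

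**Figure D3:**
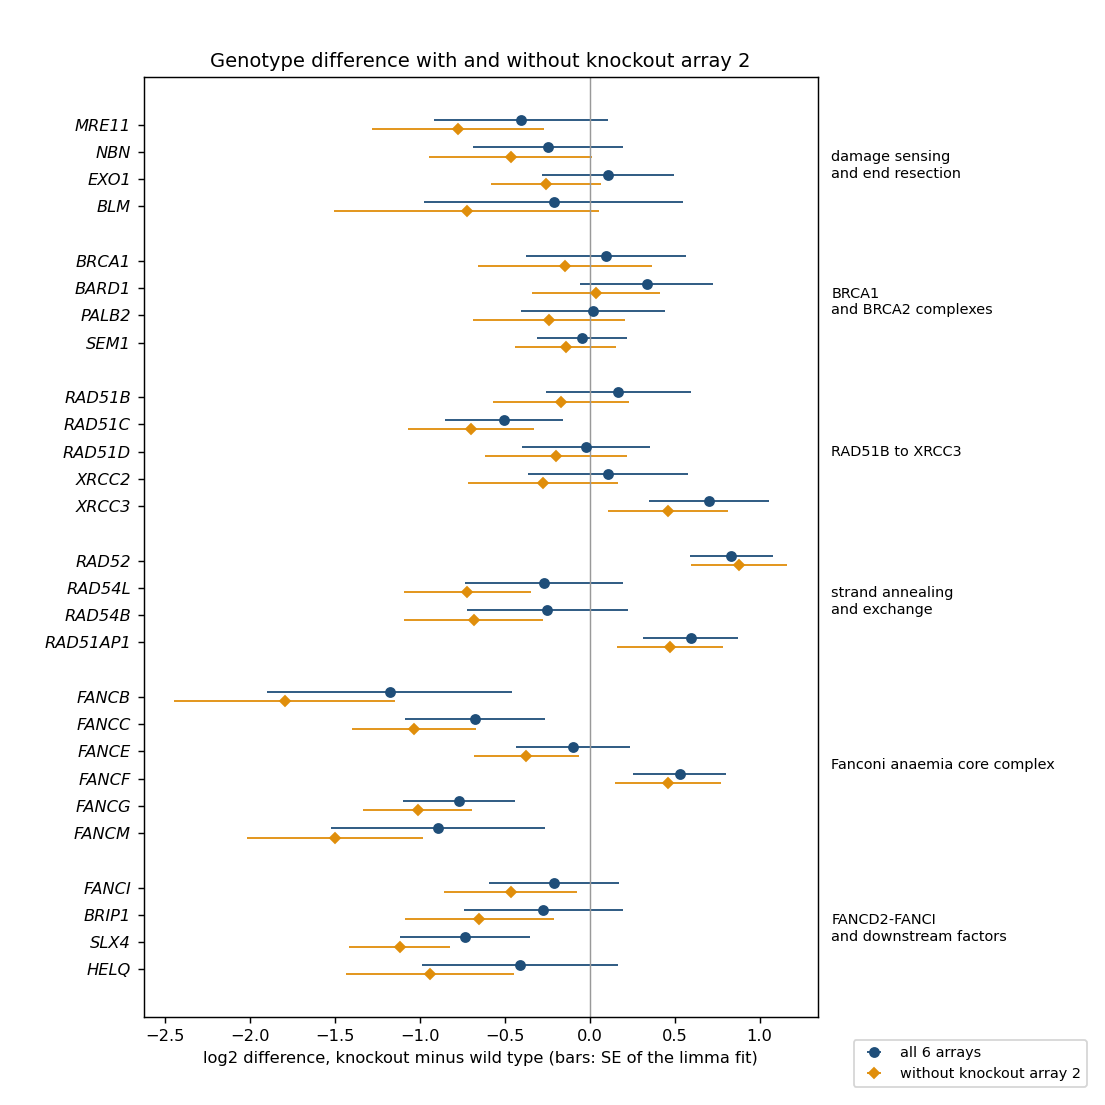
Log2 difference, knockout minus wild type, of each measured member with all 6 arrays (blue circles) and without knockout array 2 (orange diamonds), with bars for the SE of the limma fit. Without that array 22 of 27 members are below 0, against 17 with it, while RAD52, RAD51AP1, FANCF, XRCC3 and BARD1 are above 0 in both.

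Without knockout array 2, 22 of the 27 members were lower (81.5%), with a median of -0.46, against 54.0% of all probe sets and a median of -0.08. Still none was called, where 0.324% of all probe sets were. At an unadjusted p under 0.05, 5 members were lower, namely FANCB, FANCC, FANCG, FANCM and SLX4, and RAD52 was higher (3.70%, against 6.39% of all probe sets). Together these 6 are 22.2% of the members, against 16% of all probe sets. The 5 lower members are 18.5% of the 27, against 9.58% of all probe sets that were lower at that p. The genotypes did not overlap for 10 members (37.0%), 7 lower and 3 higher, against 39.4% of all probe sets, 21.5% lower and 17.9% higher. Without wild-type array 1 in place of knockout array 2, only 9 members were lower, so that the count of lower members depended on which of these arrays was present. With both left out 17 were again lower (63.0%, against 50.9% of all probe sets), with a median of -0.14. None was called there (0.036% of all probe sets were), and 5 had an unadjusted p under 0.05 (18.5%, against 12.7%). With the array median class as a block none was called either, where 1.5% of all probe sets were. At an unadjusted p under 0.05 that fit had 7 members (25.9%, against 20.6% of all probe sets), namely XRCC3, RAD52 and RAD51AP1 higher (against 11%) and FANCB, FANCC, FANCG and FANCM lower (against 9.62%). Between knockout array 2 and wild-type array 1 alone, 15 were lower (55.6%, against 44.4%), with a median of -0.02. In both of these comparisons 12 members were lower (44.4%, against 32.5% of all probe sets) and 7 were higher (25.9%, against 37.2%).

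The order of the steps differed between the like-with-like comparisons. The core complex had the lowest median on the arrays of lower median (-0.85) but not between knockout array 2 and wild-type array 1 (-0.47), and the downstream factors -0.47 and -0.12. The BRCA1 and BRCA2 complexes had medians of 0.19 and 0.01, the 5 genes from RAD51B to XRCC3 0.02 and 0.12, and the strand annealing and exchange genes 0.10 and 0.31. Genes of end resection had -0.09 and, the lowest of that comparison, -0.53. After subtraction of each array's median, the mean of the core complex genes relative to the wild-type mean was 0.31, -0.18 and -0.14 in wild type and -0.66, -0.07 and -0.89 in knockout. Knockout array 2 thus lay above wild-type arrays 2 and 3 for this step too. For the strand annealing and exchange genes the same values were 0.19, -0.14 and -0.05 in wild type and 0.10, 0.42 and 0.08 in knockout. No step had genotypes that did not overlap.

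**Figure D4:**
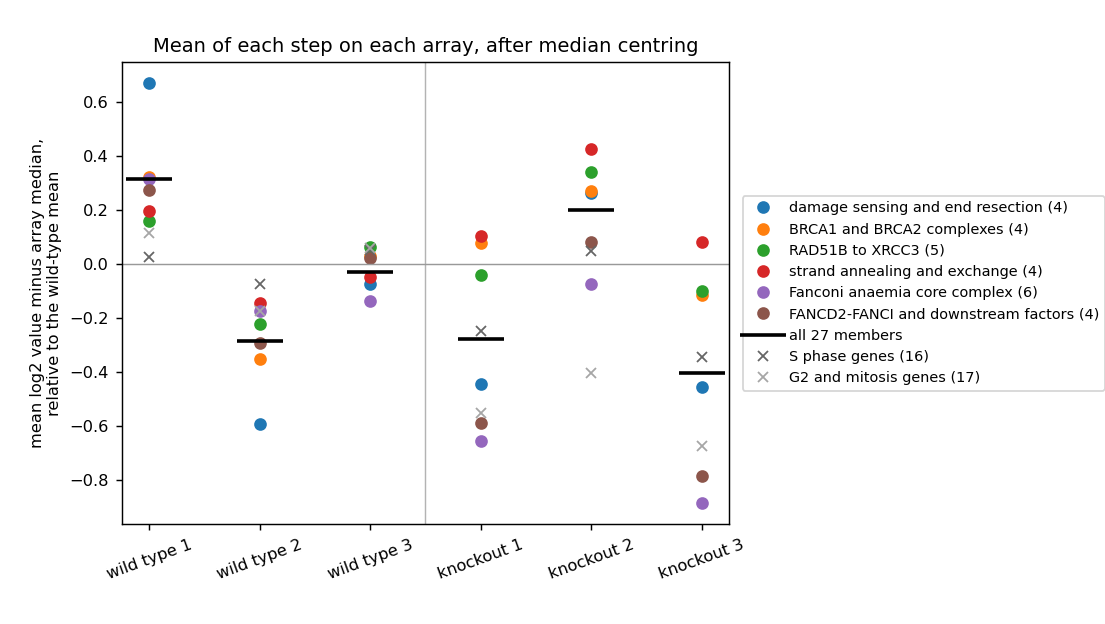
Mean over the measured genes of each step on each array, as log2 value minus the array median and relative to the mean of the 3 wild-type arrays, with the number of genes in parentheses. Black bars give the 27 members together, and crosses give S phase and G2 and mitosis genes. The members together are highest on wild-type array 1 (0.32) and knockout array 2 (0.20), and the core complex genes are lowest on knockout arrays 1 (-0.66) and 3 (-0.89).

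Cell cycle genes also had lower means in the knockout. Of 16 measured S phase genes 12 were lower (median -0.30), and of 17 G2 and mitosis genes 15 were lower (median -0.55), with none called by limma with all arrays or without knockout array 2. At an unadjusted p under 0.05 there were 1 S phase gene (6.25%) and 2 G2 and mitosis genes (11.8%) with all arrays, against 12.2% of all probe sets. Without knockout array 2 there were 3 (18.8%) and 7 (41.2%), against 16% of all probe sets. With the array median class as a block they numbered 2 (12.5%) and 9 (52.9%), against 20.6%. In that limma fit, which called 1.5% of all probe sets, 1 gene of the latter list was called. It was CDC25C, a phosphatase of mitotic entry (-1.38 ± 0.21, adjusted p = 0.0491). On the median-centred scale of the plot of step means, G2 and mitosis genes were at 0.12, -0.17 and 0.06 in wild type. In knockout they were at -0.55, -0.41 and -0.67, so that these centred means did not overlap. The means as deposited did overlap, at 9.93, 9.28 and 9.64 in wild type and 8.96, 9.49 and 8.84 in knockout. Gene by gene, the deposited values of 4 of the 17 did not overlap (23.5%, against 19.7% of all probe sets). On the centred scale, S phase genes were at 0.03, -0.08 and 0.05 in wild type and -0.25, 0.05 and -0.35 in knockout. Their part in the values of the members was not tested. All 8 colon epithelial markers were measured, and their mean was 9.09 to 9.43 on the wild-type arrays and 9.42 to 10.06 on the knockout arrays, with all 8 higher in the knockout and none called. The mean over 7 of 11 lymphocyte and myeloid markers was 5.30 to 6.19 and 5.66 to 6.28, and over 9 of 11 fibroblast and endothelial markers 6.02 to 6.91 and 6.22 to 7.15. The values come without a detection call, so that absence of these markers was not shown, and their part in the results was not tested.

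Other genes of the pathway, from a list of 58 of which 43 were measured, were examined in the same way. Of these, 29 were lower and 14 higher with a median of -0.29, and limma called none with all arrays, while 6 of them (13.95%, against 12.2% of all probe sets) had an unadjusted p under 0.05, of which 4 were lower and 2 higher. Without knockout array 2, 34 of the 43 were lower (79.1%, against 54.0% of all probe sets) and 9 higher, and none was called. At an unadjusted p under 0.05 there were then 8 (18.6%, against 16% of all probe sets). The largest separation was that of FBH1, a helicase that restrains recombination. It was at 9.53, 9.33 and 9.45 in wild type and 7.84, 8.26 and 7.95 in knockout, so that every knockout array, array 2 included, was below every wild-type array. The difference was -1.42 ± 0.25 (adjusted p = 0.0790 in limma). It passed the threshold in 6 of 18 alternatives, at 0.0391 after quantile normalization and at 0.0352 with the array median class as a block. Those fits called 174 and 292 of all 19458 probe sets. POLQ, the polymerase of end joining at resected ends, was at -0.89 ± 0.54, and at -1.49 ± 0.35 without knockout array 2. Genes that cut or unwind joint molecules were split, with 4 of 8 higher and 4 lower (median -0.09). The resolvase gene GEN1 was at 8.77, 7.83 and 7.97 in wild type and 5.69, 8.02 and 6.00 in knockout (-1.62 ± 0.63, adjusted p = 0.372). Again only knockout array 2 reached the wild-type range, and without it the limma difference was -2.35 ± 0.38 (adjusted p = 0.0892). EME1, the partner of the nuclease MUS81, was at 8.38, 8.07 and 8.08 in wild type and 6.61, 7.84 and 6.91 in knockout, without overlap (-1.05 ± 0.37, adjusted p = 0.314). Its limma difference without knockout array 2 was -1.41 ± 0.29 (adjusted p = 0.135). MUS81 itself and the helicase gene RECQL5, named after their values were seen, had differences of opposite sign, also without overlap. Values did not overlap for 9 of the 43 genes (20.9%, against 19.7% of all probe sets), 5 lower and 4 higher. MUS81 was at 9.35, 9.56 and 9.53 in wild type and 10.04, 9.97 and 10.37 in knockout (0.65 ± 0.25, adjusted p = 0.368). RECQL5 was at 0.66 ± 0.25 (adjusted p = 0.354).

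The exchange factors numbered 7 lower of 8 measured (median -0.45), led by MND1 (-1.14 ± 0.57), a cofactor of meiotic strand exchange, and SFR1 (-0.89 ± 0.36), a recombination factor. Of 13 checkpoint and chromatin response genes 11 were lower (median -0.33). Among them were UIMC1, a subunit of the BRCA1-A complex, at -0.57 ± 0.42 and the checkpoint kinase gene CHEK1 at -0.56 ± 0.39. Other Fanconi anaemia factors had 6 of 9 members higher (median 0.20). FAAP100, which belongs to the same catalytic module as FANCB, was at 0.47 ± 0.27, and the endonuclease subunit gene ERCC1 at -0.47 ± 0.27. FBH1 was the only 1 of these 10 named genes to pass the threshold in any of the 18 alternatives.

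Position on the chromosome was examined last, since RAD52 and RAD51AP1 both lie on chromosome 12. The 10 nearest measured genes on each side of a member, in gene order, served as its neighbours. RAD52 had 17 neighbours, being near the chromosome end, and 13 of them were higher in the knockout, with a median of 0.46. Its own difference of 0.83 was above those of 16 of the 17. RAD51AP1 had 20 neighbours, 17 of them higher, with a median of 0.73, above its own difference of 0.59. The 2 sets shared 1 gene. For RAD51AP1 the neighbours' median was 0.75 between knockout array 2 and wild-type array 1 and 0.63 between the other arrays, and for RAD52 it was 0.46 and 0.41. In bins of 20 genes along the chromosome, chosen after the values were seen, the first 8 bins from the short-arm end had medians between 0.28 and 0.71. Of their 160 genes 70.6% were higher (median 0.45), against 50.2% of the other 568 measured genes of the chromosome (median 0.0040). Over whole autosomes the share higher ran from 46.1% on chromosome 6 to 68.3% on chromosome 22 (medians -0.07 and 0.27). It was 54.7% on chromosome 12. The later 29 bins ran from -0.26 to 0.41, and 3 of them exceeded 0.3. DNA copy number was not analysed here.

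**Figure D5:**
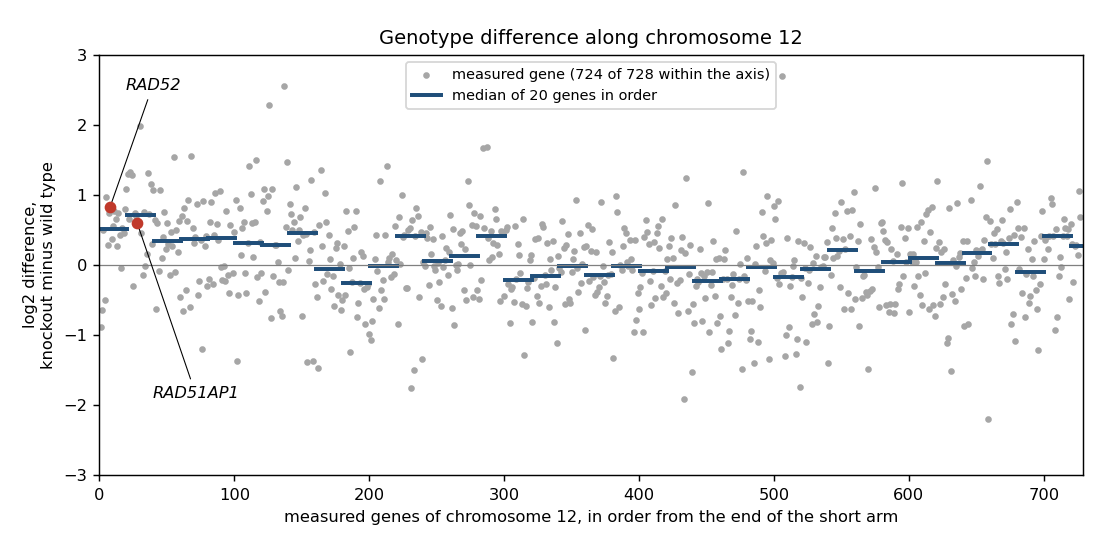
Log2 difference, knockout minus wild type, of the measured genes of chromosome 12 in their order from the end of the short arm (grey points, 724 of 728 within the axis), with medians of successive bins of 20 genes (blue bars, the last bin holding 8). RAD52 and RAD51AP1 (red) lie among the first 8 bins, whose medians are 0.28 to 0.71.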

How the data were processed

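RNA from 6 samples, 3 per genotype, was hybridised to whole-transcript arrays. The deposited values are on the log2 scale, a scale read from their range, and RMA under R 2.11.1 with build hg18 is listed in the submitters' processing notes. The RMA steps and any filters are not given in the sources used here. Array medians differed, so the values as deposited are not quantile normalized. The platform's annotation table gave the symbols (13301 probe sets with 1 symbol, 2044 with several, 4113 with none), with symbols updated through gene identifiers to RefSeq (GRCh38.p14), which was used for names, chromosomes and gene order.

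All 19458 probe sets were fitted without a filter in R 4.3.3 by limma 3.58.1, using lmFit and eBayes, genotype being the only factor, and adjusted by Benjamini-Hochberg. Each measured member had 1 probe set. Alternatives were median centring, quantile normalization, a filter on dim probe sets, a floor, a variance trend, array weights, the replicate number or the array median class as a block, and leaving out arrays. All members are given, and of the other pathway genes the called ones and the 2 of largest difference per list. The members, lists, rules and alternatives were chosen with earlier results of these data known. The code was tested on simulated data. The labels share replicate numbers, but same-numbered arrays did not deviate together (r = -0.24, -0.43 and 0.06), so no pairing was used. The number of arrays limits the precision.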

Additional observations from a re-analysis of the deposited data

How the results depend on the processing

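No member was called under any of the 19 alternatives, and the smallest adjusted p was 0.0528, for RAD52 with array weights. Of the 27 members, 11 kept their sign in all, namely RAD52, RAD51AP1, FANCF, XRCC3, BARD1, FANCB, FANCC, FANCG, FANCM, SLX4 and RAD51C. Several alternatives could not change a sign. The variance trend, a robust variance, a fit without moderation, the dim filter and both blocks leave each difference as it was. A mean over the probe sets of a gene repeats the main fit, since each member had 1 probe set. The number of probe sets called, 111 as deposited, was 175 with median centring, 174 after quantile normalization, 184 without the dimmest 30%, 169 with values under 4 set to 4, 396 with a variance trend, 778 with array weights, 3 with the replicate block, 7 without wild-type array 1 and knockout array 2, and 292 with the array median class as a block, an alternative chosen after seeing the data. The median of all probe sets moved by under 0.1 in each setting. With 1 array left out it was 24 to 63 calls, 0 to 0 members called, 9 to 22 members lower and a members' median of -0.46 to 0.08. The replicate block gave the members the same differences with a smallest adjusted p of 0.742. Signs that changed were PALB2 with median centring (-0.0060) and quantile normalization (-0.041), EXO1 (-0.12), PALB2 (-0.099), RAD51B (-0.21) and RAD51D (0.057) with array weights, BRCA1 (-0.039), EXO1 (-0.15), PALB2 (-0.13), RAD51B (-0.064) and XRCC2 (-0.17) with median centring and no knockout array 2, and BLM (0.053) and EXO1 (-0.10) without wild-type array 1 and knockout array 2. With 1 array left out, differences that changed sign ran from -0.78 to 0.56 for BLM, -0.27 to 0.55 for BRCA1, -0.65 to 0.076 for BRIP1, -0.26 to 0.34 for EXO1, -0.37 to 0.15 for FANCE, -0.48 to 0.06 for FANCI, -0.94 to 0.028 for HELQ, -0.83 to 0.0091 for MRE11, -0.57 to 0.14 for NBN, -0.31 to 0.35 for PALB2, -0.17 to 0.36 for RAD51B, -0.21 to 0.34 for RAD51D, -0.68 to 0.092 for RAD54B, -0.72 to 0.020 for RAD54L, -0.15 to 0.087 for SEM1 and -0.27 to 0.48 for XRCC2. The cause was not tested.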

Other observations

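The differences of some members were set beside those of their chromosomal neighbours. SLX4, on chromosome 16, had a difference of -0.73, whereas 18 of its 20 nearest measured genes were higher in the knockout (median 0.34), and it lay below all 20. FANCM, on chromosome 14, had a difference of -0.89 and lay below all 20 of its neighbours (median -0.26). FANCB lay below 19 of 20 neighbours (median -0.15), and FANCC and FANCG, both on chromosome 9, each lay below 18 of 20 (medians 0.05 and 0.10). FANCI, at -0.21, had 15 of 20 neighbours higher (median 0.30), RAD51C, at -0.51, had 13 of 20 higher (median 0.11), and FANCF, at 0.53, had 9 of 20 higher (median -0.07). XRCC3, on chromosome 14, had a difference of 0.70 among neighbours of which 17 of 20 were higher (median 0.36). EME1 and GEN1 lay below all 20 of their neighbours, whose medians were 0.30 and -0.04, while FBH1 lay in a stretch of chromosome 10 with a median of -0.48. These neighbours were chosen after the values were seen, and no test was made.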
